A study of Mus musculus with 17 samples.

Results

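Described here are 10 genes (Slc15a2, Cdh19, Apoh, E330017A01Rik, 2310043L19Rik, Tecrl, Tmc2, Cd300c, Clca4 and Myh4) of the 23980 RefSeq genes listed in each table. They were chosen by name, as genes linked to a retrotransposon or strongly changed, whose levels in leptotene/zygotene (L/Z) spermatocytes differed between the Pld6 KO and the Dnmt3l KO or were still raised in newborn testes. The L/Z levels of all 3 genotypes and the newborn levels of the mutants against WT therefore chose the genes, and those values are given as a description without a test. The rule held no threshold. The genes had been grouped as higher in the Dnmt3l KO than in the Pld6 KO, but the data went against that name for 3 of them: Myh4 and Cd300c were higher in the Pld6 KO, and the libraries of both mutants overlapped for Tmc2. For Tecrl they overlapped too.

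PolyA(+) RNA was sequenced with strand discrimination in 17 libraries of C57BL6/J mice. There were 6 libraries of L/Z spermatocytes, germ cells in early meiotic prophase that had been sorted at 3 to 4 weeks after birth, with 2 libraries for each of the 3 genotypes WT, Pld6 KO and Dnmt3l KO. The other 11 libraries were of whole testes at postnatal day 0 (P0), with 2 of WT, 4 of Pld6 KO, 2 of Dnmt3l KO and 3 of the double knockout (DKO). Both knockout lines had been backcrossed to this strain. Mutant spermatocytes are lost before meiotic prophase is complete, so mutant testes hold only early germ cells, and in P0 testes prospermatogonia are mixed with somatic cells. In such whole testes fewer cells of a type and less RNA per cell cannot be told apart.

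Pld6 encodes an enzyme of the outer mitochondrial membrane that acts in the making of PIWI-interacting RNAs, which guide the cleavage of retrotransposon transcripts and the methylation of some retrotransposon promoters. Dnmt3l encodes a cofactor, without catalytic activity of its own, of the enzymes that methylate DNA de novo in prospermatogonia. Retrotransposons carry their own promoters, in the long terminal repeats (LTRs) of endogenous retroviruses such as the intracisternal A particle (IAP), or at the start of LINE-1 (L1) elements. Such a promoter can start transcripts that run into a nearby gene.

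In the study's lists, 8 of the 10 genes were linked to an activated element in the sense direction. An IAP element of the IAPEZ type lay inside Slc15a2, Cdh19 and Apoh and upstream of E330017A01Rik. A MERVK element lay upstream of 2310043L19Rik, an L1 element of the Gf type upstream of Tecrl, and an RLTR10 element upstream of Tmc2 and of Cd300c. For Clca4 and Myh4 no element was named. The links had been made on the same L/Z libraries, so they are not independent of the levels given here.

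In RefSeq (GRCm38.p6, the mm10 assembly), Slc15a2 lies on chromosome 16 from 36750161 to 36785158, Cdh19 on chromosome 1 from 110888002 to 110977601, and Apoh on chromosome 11 from 108395297 to 108414396. E330017A01Rik, there named Ftdc2, lies on chromosome 16 from 58635262 to 58638403, and 2310043L19Rik, a long noncoding RNA gene, on chromosome 1 from 177641542 to 177642943. Tecrl lies on chromosome 5 from 83278122 to 83355195, Tmc2 on chromosome 2 from 130195194 to 130265189, Cd300c on chromosome 11 from 114956105 to 114960507, and Myh4 on chromosome 11 from 67237812 to 67260447. The name Clca4 matched 2 RefSeq genes (Clca3b and Clca4a), so no position is given for it.

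The start regions annotated in RefSeq are not the elements themselves, and they show the CG dinucleotides on which DNA methylation falls at the genes' own promoters. Windows of 250 bases before the annotated start were found for 7 of the 10 genes, and 4 are shown, from genes with one-sided levels: Apoh (chr11:108395047-108395296, + strand) and E330017A01Rik (chr16:58638404-58638653, - strand), which were higher in the Dnmt3l KO, and Cd300c (chr11:114960508-114960757, - strand) and Myh4 (chr11:67237562-67237811, + strand), which were higher in the Pld6 KO. They are written 5′ to 3′ from the RefSeq promoters of GRCm38.p6, with each CG in capitals.
Apoh: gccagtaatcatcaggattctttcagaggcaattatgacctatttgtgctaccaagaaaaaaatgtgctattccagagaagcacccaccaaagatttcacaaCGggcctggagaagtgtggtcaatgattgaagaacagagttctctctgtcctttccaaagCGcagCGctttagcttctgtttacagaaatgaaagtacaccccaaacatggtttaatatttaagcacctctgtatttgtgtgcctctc
E330017A01Rik: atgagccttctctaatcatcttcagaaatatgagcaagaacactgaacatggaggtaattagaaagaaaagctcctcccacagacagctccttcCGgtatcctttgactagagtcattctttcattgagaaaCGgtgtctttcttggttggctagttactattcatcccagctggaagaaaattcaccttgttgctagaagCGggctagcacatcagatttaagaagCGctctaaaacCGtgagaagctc
Cd300c: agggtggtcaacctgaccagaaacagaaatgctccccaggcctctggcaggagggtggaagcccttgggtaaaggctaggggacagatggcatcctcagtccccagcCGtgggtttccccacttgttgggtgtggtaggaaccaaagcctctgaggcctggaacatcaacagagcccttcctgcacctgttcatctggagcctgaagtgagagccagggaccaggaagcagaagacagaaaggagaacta
Myh4: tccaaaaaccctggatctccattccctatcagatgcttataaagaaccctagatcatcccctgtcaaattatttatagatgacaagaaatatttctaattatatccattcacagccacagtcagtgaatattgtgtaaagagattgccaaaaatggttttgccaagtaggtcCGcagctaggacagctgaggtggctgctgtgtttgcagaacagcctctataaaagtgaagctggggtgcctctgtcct
Apoh held 3 CG and E330017A01Rik 5, while Cd300c and Myh4 each held 1. Of the other windows found, Slc15a2 held 4 CG, Tecrl 2 and 2310043L19Rik 1. The Slc15a2 window (chr16:36784963-36785212, - strand) partly overlaps the gene as placed above, which ends at 36785158, so it does not lie wholly before that gene. Among all 32851 RefSeq promoter windows of this length the median was 6 CG, and 92.1% held at least 1, so all 7 genes lay below the median.

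The targeted genes were checked first. At L/Z, Pld6 had 344 and 352 counts in WT, 0 in each Pld6 KO library, and 63 and 261 in the Dnmt3l KO. Dnmt3l had 19 and 11 counts in WT, 6 and 10 in the Pld6 KO and 0 in each Dnmt3l KO library. At P0, no Pld6 KO library had more than 2 counts of Pld6 and the DKO had 0, and Dnmt3l had at most 2 counts in the Dnmt3l KO and at most 3 in the DKO. Library totals ran from 5194238 to 14578341 fragments at L/Z and from 9900346 to 23498968 at P0. All L/Z libraries held the 10 spermatocyte markers, whose summed level was 1895 and 3414 CPM (counts scaled to library size) in WT, 2393 and 3875 in the Pld6 KO, and 7206 and 6390 in the Dnmt3l KO, while the 8 Sertoli markers were lowest in the Dnmt3l KO (534 and 514 CPM, against 805 to 1100 CPM elsewhere at L/Z). The 45S pre-ribosomal RNA gene Rn45s took 8.27% of fragments in the first WT and 8.06% in the first Pld6 KO library, against at most 0.301% in the other L/Z libraries. The part of these differences in the levels below was not tested.

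At L/Z, both Dnmt3l KO libraries lay above both WT libraries for 9 of the 10 genes, as they did for 28.1% of the 14662 genes tested. The Pld6 KO libraries both lay above WT for 6 of the 10 (21.6% of all genes tested). Between the mutants, the Dnmt3l KO libraries both lay above the Pld6 KO for 6 of the 10 genes (26.9% of all genes tested). They lay below it for Cd300c and Myh4, where no share over all genes is given, and overlapped it for Tecrl and Tmc2. All 10 genes passed the filter on low counts at this stage. Under the test across all genes described below, 0.0477% of genes differed between the mutants. As these levels chose the 10 genes, they carry no test here and nothing is read from the counts.

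**Figure D1:**
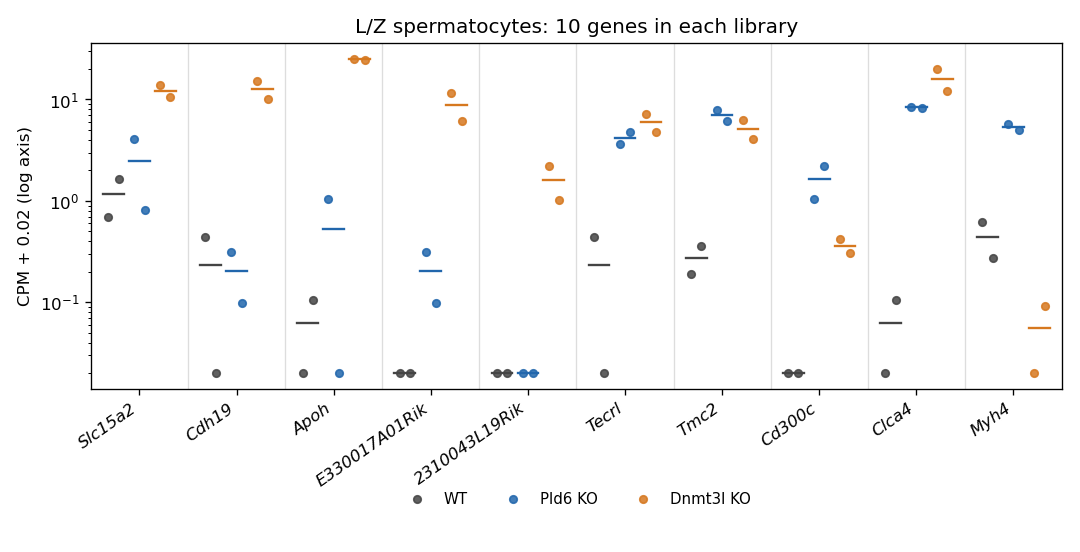
Levels of the 10 genes in each L/Z library, as CPM + 0.02 on a log axis. Points are libraries (2 per genotype) and short lines are genotype means, and a library at 0 sits at the bottom of the plot. The 5 genes on the left are highest in the Dnmt3l KO, Tecrl, Tmc2 and Clca4 are high in both mutants, and Cd300c and Myh4 are highest in the Pld6 KO.

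The 4 genes linked to an IAP element were low in WT and the Pld6 KO and high in the Dnmt3l KO. Apoh encodes apolipoprotein H, a plasma protein made by the liver. It had 0 and 1 counts in WT, 7 and 0 in the Pld6 KO, and 126 and 343 in the Dnmt3l KO, where its level was 24.9 ± 0.459 CPM (SD, n = 2). Both Dnmt3l KO libraries were far above the other 4. The Dnmt3l KO was 583 times WT, with a 95% counting interval from 104 to 23060 around the single WT count, and exceeded the Pld6 KO by 5.94 ± 0.82 (SE) on the log2 scale. All 7 counts of the Pld6 KO came from its first library, and without its second library the difference was 4.59. The 8 hepatocyte markers summed to 3.51 and 5.20 CPM in the Dnmt3l KO, below the 7.23 and 7.37 CPM of WT, and to 4.42 and 7.27 CPM in the Pld6 KO. Some of these markers were at or near 0 in every genotype. Alb, Ttr and Fabp1 were at 0 in the Dnmt3l KO. In WT, Ttr and Fabp1 were at 0 and Alb had at most 1 count, and in the Pld6 KO Fgb and Fabp1 were at 0. The sums thus came mostly from markers other than Alb, Ttr and Fabp1.

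Cdh19 encodes a type II cadherin, a cell adhesion protein known from the Schwann cell lineage. It had 5 and 0 counts in WT, 2 and 1 in the Pld6 KO, and 76 and 141 in the Dnmt3l KO (12.6 ± 3.61 CPM). WT and the Pld6 KO overlapped, and the Dnmt3l KO stood apart from both. The Dnmt3l KO exceeded WT by 5.81 ± 0.82 on the log2 scale, a value that rested on the first WT library, which held all 5 WT counts. It was 4.85 without the second WT library, 7.88 with a term for the Rn45s-rich libraries, and 9.98 without the first WT library, where WT is at 0 and the fitted value is no bound. The Dnmt3l KO was 74.6 times the Pld6 KO (95% counting interval 25.2 to 364). The 7 Schwann cell markers were all detected in each genotype and summed to 39.3 and 43.6 CPM in WT, 41.2 and 43.3 in the Pld6 KO, and 41.0 and 52.8 in the Dnmt3l KO, so that these sums overlapped.

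E330017A01Rik is a protein-coding gene named after its cDNA clone. It had 0 counts in both WT libraries, 2 and 1 in the Pld6 KO, and 58 and 85 in the Dnmt3l KO (8.84 ± 3.90 CPM). Its level in the Dnmt3l KO was at least 59.2-fold higher than in WT, with 3 counts over the WT libraries as the floor. Such a bound leaves out counting error in the mutant. The level was 49.1 times that in the Pld6 KO (95% counting interval 16.5 to 241).

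Slc15a2 encodes PEPT2, a proton-coupled transporter of short peptides known from kidney and brain, and had the highest WT level per length of the 4. It had 8 and 19 counts in WT, 28 and 10 in the Pld6 KO, and 70 and 146 in the Dnmt3l KO (12.2 ± 2.51 CPM). Both Dnmt3l KO libraries were the highest, while the Pld6 KO libraries, at 4.07 and 0.789 CPM, overlapped WT, at 0.678 and 1.62 CPM. The Dnmt3l KO exceeded WT by 3.39 ± 0.70 and the Pld6 KO by 2.41 ± 0.67 on the log2 scale. Without the second WT library the Dnmt3l KO exceeded WT by 4.14, and without the first or the second Pld6 KO library it exceeded the Pld6 KO by 3.93 or 1.57. The Pld6 KO differed from WT by 0.99 ± 0.72, by 1.72 without the second WT library, and by -0.53 or 1.82 without its own first or second library.

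The noncoding gene 2310043L19Rik, with a MERVK element upstream, was detected at L/Z in the Dnmt3l KO libraries and in no other. It had 11 and 14 counts there (1.60 ± 0.847 CPM) and 0 in the other 4 libraries. The Dnmt3l KO was at least 10.4-fold higher than WT and at least 8.59-fold higher than the Pld6 KO, by the same floor.

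Clca4, Tecrl and Tmc2 were high in both mutants. Clca4 belongs to the CLCA proteins, known as regulators of chloride conductance in epithelia. It had 0 and 1 counts in WT, 58 and 104 in the Pld6 KO (8.32 ± 0.163 CPM), and 99 and 171 in the Dnmt3l KO (16.0 ± 5.34 CPM). No mutant library overlapped WT, and the Dnmt3l KO libraries lay above the Pld6 KO. The Pld6 KO was 195 times WT (95% counting interval 34.5 to 7758) and the Dnmt3l KO 335 times WT (59.7 to 13296), and the mutants differed by 0.93 ± 0.40 on the log2 scale. CLCA genes include near-identical copies, between which fragments may have been shared, so these values are uncertain.

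Tecrl encodes a relative of the trans-2,3-enoyl-CoA reductase and is known from heart and skeletal muscle. It had 5 and 0 counts in WT, 25 and 60 in the Pld6 KO (4.18 ± 0.776 CPM), and 36 and 66 in the Dnmt3l KO (5.96 ± 1.75 CPM). The mutants overlapped each other and not WT. The Pld6 KO exceeded WT by 4.24 ± 0.82 and the Dnmt3l KO by 4.71 ± 0.82 on the log2 scale, and the mutants differed by 0.48 ± 0.62. All 5 WT counts came from the first WT library. Without the second WT library the differences from WT were 3.28 and 3.75, and without the first, where WT is at 0 and the fitted values are no bounds, they were 8.41 and 8.88.

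Tmc2 encodes a transmembrane channel-like protein of the mechanotransduction complex in inner ear hair cells. It had 2 and 4 counts in WT, 54 and 77 in the Pld6 KO (6.96 ± 1.26 CPM), and 31 and 57 in the Dnmt3l KO (5.14 ± 1.499 CPM). Again the mutants overlapped each other and not WT. The Pld6 KO exceeded WT by 4.70 ± 0.60 and the Dnmt3l KO by 4.25 ± 0.61 on the log2 scale, and the Dnmt3l KO differed from the Pld6 KO by -0.46 ± 0.46.

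Cd300c and Myh4 were higher in the Pld6 KO than in the Dnmt3l KO. Cd300c encodes a surface receptor of myeloid cells and, like Tmc2, was linked to an RLTR10 element. It had 0 counts in both WT libraries, 7 and 28 in the Pld6 KO (1.61 ± 0.842 CPM), and 2 and 4 in the Dnmt3l KO (0.343 ± 0.0804 CPM). By the same floor, which leaves out counting error in the mutants, the Pld6 KO was at least 14.1-fold and the Dnmt3l KO at least 2.48-fold higher than WT. The Dnmt3l KO differed from the Pld6 KO by -2.31 ± 0.86 on the log2 scale, or by -1.61 without the second Pld6 KO library. The 8 myeloid markers were all detected in each genotype and summed to 34.4 and 8.67 CPM in WT, 44.6 and 23.8 in the Pld6 KO, and 37.4 and 63.1 in the Dnmt3l KO, so their largest sum was in a Dnmt3l KO library. CD300 genes are similar copies in a cluster, and the value of Cd300c is uncertain for that reason.

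Myh4 encodes the fast IIb myosin heavy chain of skeletal muscle. It had 7 and 3 counts in WT, 39 and 63 in the Pld6 KO (5.32 ± 0.496 CPM), and 0 and 1 in the Dnmt3l KO. The 3 genotypes did not overlap, with the Pld6 KO highest and the Dnmt3l KO lowest. The Pld6 KO exceeded WT by 3.61 ± 0.66 on the log2 scale, and by 4.31 without the first WT library. The Dnmt3l KO was 8.05 times lower than WT (95% counting interval 1.15 to 349) and 98.9 times lower than the Pld6 KO (17.4 to 3946), both ratios resting on a single Dnmt3l KO count. The 10 skeletal muscle markers summed to 20.9 and 22.7 CPM in the Pld6 KO, below the 24.6 CPM of both WT libraries, and to 16.6 and 23.2 CPM in the Dnmt3l KO. One of them was at 0 in WT (Tnnt3) and another in the Pld6 KO (Mb).

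**Figure D2:**
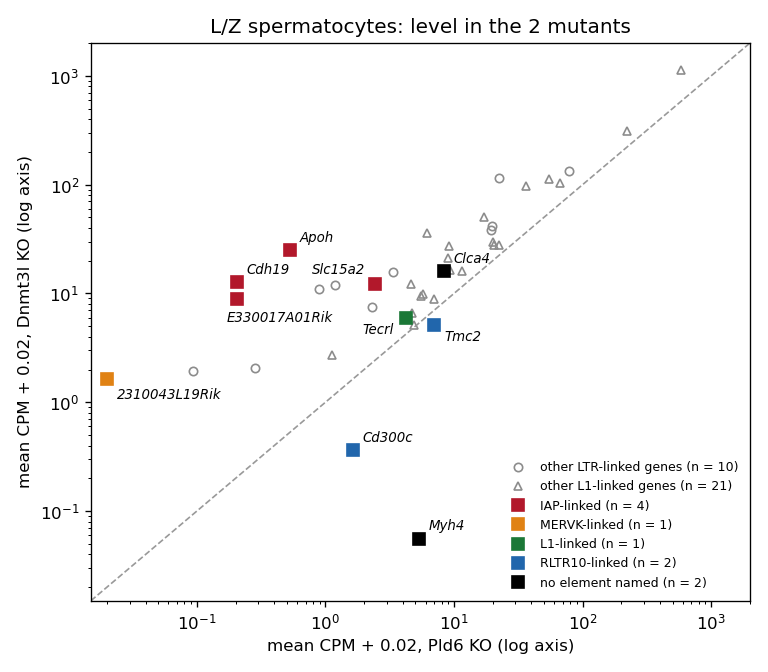
Mean level of each gene in the Dnmt3l KO (y axis) against the Pld6 KO (x axis) at L/Z, as CPM + 0.02 on log axes, with the dashed line at equal levels. Squares are the 10 genes, coloured by the element the study linked to them, and open symbols are the other 10 LTR-linked and 21 L1-linked genes. The IAP-linked and MERVK-linked genes lie above the line and Clca4 lies above it by less. Tecrl and Tmc2 lie near it, and Cd300c and Myh4 lie below it.

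Levels of different genes were compared per transcript length, as FPKM, which divides fragments by transcript length as well as by library size. In the Dnmt3l KO the order of mean FPKM was Apoh (25.2 ± 1.02, SD, n = 2), E330017A01Rik (18.7 ± 8.61), Clca4 (5.17 ± 1.83), Cdh19 (4.44 ± 1.36), Slc15a2 (3.25 ± 0.678), 2310043L19Rik (3.24 ± 1.78), Tecrl (2.75 ± 0.865), Tmc2 (1.71 ± 0.534), Cd300c (0.704 ± 0.180) and Myh4 (0.00603 ± 0.00852). Apoh and E330017A01Rik differed by less than the larger SD of the pair, and so did each pair of neighbours from Clca4 to Tecrl. In the Pld6 KO the order of mean FPKM was led by Cd300c (3.28 ± 1.69), Clca4 (2.66 ± 0.0766), Tmc2 (2.30 ± 0.436) and Tecrl (1.91 ± 0.338), whose neighbours again differed by less than the larger SD. Cd300c, the lowest but one per length in the Dnmt3l KO, thus had the highest mean in the Pld6 KO.

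Other genes that the study had linked to an element on the same libraries are set beside the 10 as a description. The LTR-linked list was drawn from the Dnmt3l KO L/Z cells, while the L1-linked list was not limited to that mutant, so the medians of the lists are not compared. The median log2 difference of the Dnmt3l KO from the Pld6 KO was 2.29 for the other 10 LTR-linked genes and 0.78 for the other 21 L1-linked genes, against -0.0028 for all genes tested. Tecrl, the L1-linked gene described here, had a difference (0.48) between those of the extremes of its class, which ran from 0.01 for Il23r (4.83 CPM in the Pld6 KO and 5.07 CPM in the Dnmt3l KO) and 0.28 for Robo2 (22.4 and 27.6 CPM) to 1.57 for Gc (9.17 and 27.2 CPM) and 2.60 for Reg2 (6.18 and 36.3 CPM). Among the LTR-linked genes the smallest differences were 0.76 for AK129341 (78.8 and 134.5 CPM) and 0.98 for Srgap1 (19.2 and 38.3 CPM). The largest were in Capn11, at 3.76 (0.878 and 10.9 CPM), and in Plac8l1, which was 37.1 times higher in the Dnmt3l KO (95% counting interval 6.25 to 1506) over a single Pld6 KO count.

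The pattern of a gene over the 6 L/Z libraries was compared with that of every other gene tested, for the 8 genes with a mean of at least 1 CPM. Most like Apoh was Pak7 (Pearson r = 0.997 of log2(CPM + 1)), which averaged 0.0425 CPM in WT, 0.145 in the Pld6 KO and 1.69 in the Dnmt3l KO, and most like Cdh19 was Anxa3 (r = 0.994), at 1.15, 0.824 and 13.5 CPM. Clca4 was most like Tfcp2l1 (r = 0.999), at 29.8, 69.1 and 88.2 CPM. For Slc15a2 the nearest gene was Mink1 (r = 0.994), for E330017A01Rik Ankra2 (r = 0.990) and for Tecrl Zzz3 (r = 0.997). For Tmc2 it was Ncoa3 (r = 0.991) and for Myh4 Nlgn3 (r = 0.995). In the same order of genotypes, Mink1 averaged 128, 142 and 199 CPM, Ankra2 14.4, 15.3 and 25.1, and Zzz3 127, 151 and 157. Ncoa3 averaged 171, 268 and 263 CPM and Nlgn3 1.78, 2.83 and 1.59. A high r therefore does not mean a change of like size. With so many genes set against 6 libraries, the highest correlation is high for nearly any gene, and all genes share the libraries and their depth.

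Genes near the 10 were not part of the choice and were tested. Of 32 listed genes within 100 kb of the 9 placed genes, 19 passed the filter. In the Pld6 KO against WT 0 of the 19 were called by edgeR's quasi-likelihood test, where 0.225% of all genes were. Calls were made at a Benjamini-Hochberg adjusted p-value (FDR) under 0.05 and over 2-fold. By the same test 0 of the 19 had an unadjusted p under 0.05, as did 9.17% of all genes. The DESeq2 Wald test called 0 as well. The smallest unadjusted p was that of 4930565N06Rik, 95.4 kb from Slc15a2, with a log2 difference of 1.42 ± 0.69 (FDR 0.563).

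In the Dnmt3l KO against WT 2 of the 19 neighbours rose and 0 fell, where 5.47% of all genes were called in either direction. By edgeR 5 of the 19 had an unadjusted p under 0.05, as did 26.7% of all genes. The median over the 19 was -0.06 against -0.04 over all genes tested. Cep112, which encodes a centrosomal protein, lies 10.8 kb from Apoh and was at 22.2 and 33.6 CPM in WT, 25.9 and 35.01 in the Pld6 KO, and 57.4 and 58.6 in the Dnmt3l KO. It rose by 1.06 ± 0.27 on the log2 scale in the Dnmt3l KO (edgeR FDR 0.0402). Iqcb1, which encodes the ciliary protein nephrocystin-5, lies 43.2 kb from Slc15a2. It was at 138.8 and 260.2 CPM in WT, 187.1 and 262.7 in the Pld6 KO, and 441.5 and 531.6 in the Dnmt3l KO, and rose by 1.29 ± 0.31 (edgeR FDR 0.0326). Leaving out the first WT library or either Dnmt3l KO library ended both calls, and without the first Dnmt3l KO library 1 gene of all tested was still called. A term for the Rn45s-rich libraries ended the call of Cep112. The part of the higher spermatocyte markers in these rises was not tested.

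**Figure D3:**
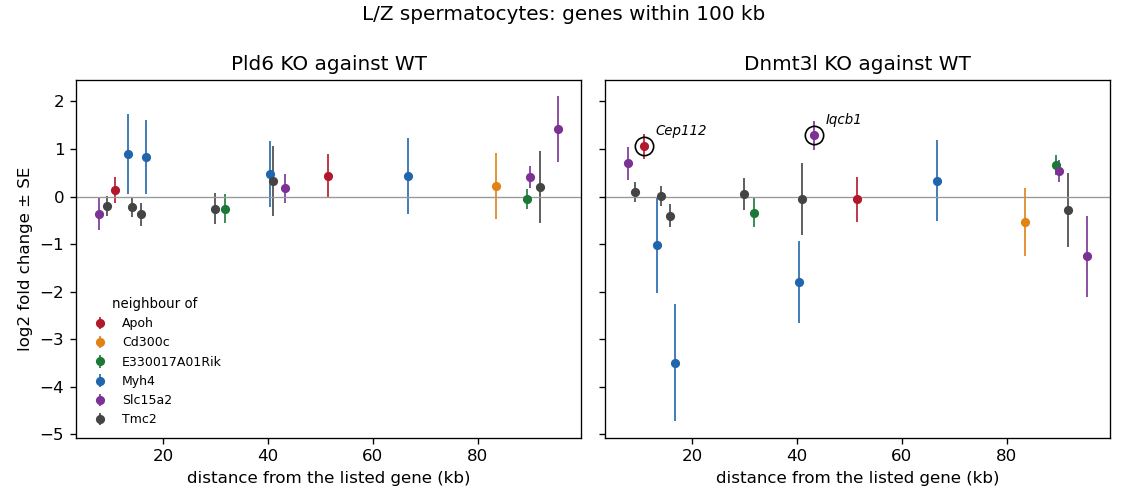
Log2 fold change with its SE for the 19 genes tested within 100 kb of the listed genes, against distance in kb, at L/Z. The left panel is the Pld6 KO and the right panel the Dnmt3l KO, each against WT, with colours for the listed gene and black rings for called genes. No gene is ringed in the left panel, and Cep112 and Iqcb1 are ringed in the right.

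The 4 tested neighbours of Myh4 were other myosin heavy chain genes of the same cluster, Myh1, Myh2, Myh8 and Myh13. Their levels were low, at 0.764 to 0.976 CPM in WT and 1.04 to 1.84 CPM in the Pld6 KO, and 0 of the 4 were called in either mutant. In the Dnmt3l KO against WT the log2 difference was -1.03 ± 1.00 for Myh1, -1.80 ± 0.87 for Myh2 and 0.34 ± 0.85 for Myh13, and Myh8 was 14.5 times lower (95% counting interval 2.29 to 604) over a single count. The genes of the cluster are similar in sequence, so fragments may have been shared among them.

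Relatives of the 10 genes were listed by family, and 27 of 49 passed the filter. In the Pld6 KO against WT 0 of the 27 were called by edgeR (0.225% of all genes), 4 had an unadjusted p under 0.05 (9.17% of all genes), and the DESeq2 Wald test called 2, Cdh12 and Cdh18. In the Dnmt3l KO 2 rose and 1 fell (5.47% of all genes called), and 8 had an unadjusted p under 0.05 by edgeR (26.7% of all genes). Both that rose were type II cadherins known from brain, the family of Cdh19. Cdh12 had 3 counts in WT (0.0847 and 0.170 CPM), was at 2.21 and 2.33 CPM in the Pld6 KO and at 5.87 and 11.6 CPM in the Dnmt3l KO, and rose 58.0-fold in the Dnmt3l KO (95% counting interval 19.4 to 284, edgeR FDR 0.00278). Cdh18 was at 0.170 and 0.423 CPM in WT, 2.05 and 3.63 in the Pld6 KO and 3.15 and 7.20 in the Dnmt3l KO, where it rose by 4.03 ± 0.74 on the log2 scale (edgeR FDR 0.0153). In the Pld6 KO, Cdh12 was 17.7 times WT (5.67 to 89.0, edgeR FDR 0.0624) and Cdh18 differed from WT by 3.18 ± 0.74 (edgeR FDR 0.184). Neither was called by edgeR, while the DESeq2 Wald test and the fit with a term for the Rn45s-rich libraries called both. In WT no library of either gene reached the cutoff of the low-count filter (0.872 CPM), which both passed through the mutants. The other 4 cadherins tested, Cdh11, Cdh20, Cdh22 and Cdh24, were not called.

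The relative that fell was Myh3, the embryonic myosin heavy chain. It was at 7.88 and 8.84 CPM in WT, 5.82 and 7.25 in the Pld6 KO, and 0.200 and 1.503 in the Dnmt3l KO, and fell by 3.02 ± 0.58 on the log2 scale (edgeR FDR 0.0187). Unlike Myh4, its log2 difference in the Pld6 KO was -0.35 ± 0.50 (edgeR FDR 0.857). Without the first Dnmt3l KO library 0 relatives were called, and without the first WT library 1 was (Cdh12). In the other families 0 of 14 genes tested were called in the Dnmt3l KO, among them Slc15a1 and Slc15a4, 6 TMC channels and Tecr.

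At P0, 7 of the 10 genes passed the filter on low counts, and 2310043L19Rik, Cd300c and E330017A01Rik did not. In the 11 libraries 2310043L19Rik and Cd300c had at most 2 counts and E330017A01Rik at most 5. Of the 7, both Dnmt3l KO libraries lay above both WT libraries for 4 (25.3% of the 15901 genes tested), all 3 DKO libraries for 4 (15.7%) and all 4 Pld6 KO libraries for 2 (5.83%). The differences from WT at P0 are part of the choice of genes and carry no test.

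**Figure D4:**
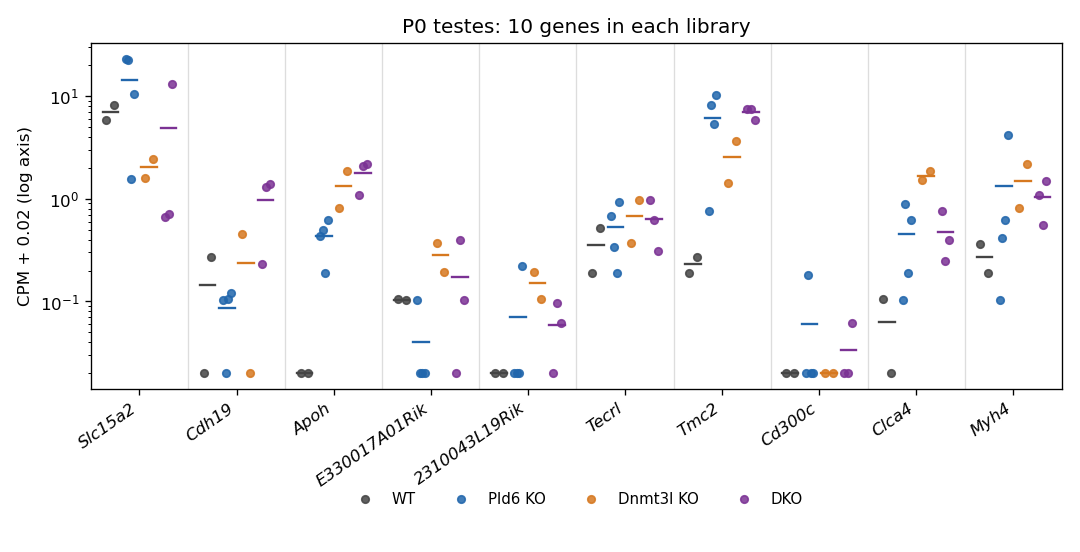
Levels of the 10 genes in each P0 library, as CPM + 0.02 on a log axis, with points for libraries (2 WT, 4 Pld6 KO, 2 Dnmt3l KO and 3 DKO) and short lines for genotype means. Apoh and Tmc2 are above WT in all 9 mutant libraries, Slc15a2 varies widely within the Pld6 KO and the DKO, and the remaining genes are low.

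Tmc2 and Apoh were above WT in all 9 mutant libraries at P0. All Pld6 KO libraries alone lay above WT for 5.83% of the genes tested, and the share for all 9 mutant libraries was not counted. Tmc2 had 2 and 3 counts in WT, 9, 103, 62 and 102 in the Pld6 KO, 16 and 42 in the Dnmt3l KO, and 70, 99 and 138 in the DKO. It exceeded WT by 4.79 ± 0.98 in the Pld6 KO, 3.52 ± 1.07 in the Dnmt3l KO and 4.97 ± 1.00 in the DKO on the log2 scale, and without the second Dnmt3l KO library by 2.66 in the Dnmt3l KO. The low value of 9 counts came from the first Pld6 KO library, which also had the lowest sum of the 9 prospermatogonia markers, at 123.9 CPM against 228.6 to 519.8 CPM in the other P0 libraries. Without that library the difference in the Pld6 KO was 5.16. The part of germ cell content in these values was not tested.

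Apoh had 0 counts in both WT libraries, 5, 6, 2 and 6 in the Pld6 KO, 9 and 21 in the Dnmt3l KO, and 10, 27 and 51 in the DKO. By the same floor as at L/Z, it was at least 3.24-fold higher than WT in the Pld6 KO, at least 10.3-fold in the Dnmt3l KO and at least 14.96-fold in the DKO. Its order among genotypes was that of L/Z, with the Pld6 KO below the Dnmt3l KO. Summed hepatocyte markers at P0 were 11.5 and 15.2 CPM in WT, 9.06 to 21.9 CPM in the Pld6 KO, and 8.80 to 11.7 CPM in the Dnmt3l KO and DKO.

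Clca4 had 1 and 0 counts in WT, 1, 11, 2 and 6 in the Pld6 KO, 17 and 21 in the Dnmt3l KO, and 7, 3 and 9 in the DKO. Every Dnmt3l KO library was above every other P0 library. The Dnmt3l KO was 39.2 times WT (95% counting interval 6.63 to 1590), the Pld6 KO 10.2 times (1.64 to 424) and the DKO 9.69 times (1.54 to 403).

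Slc15a2 was expressed in P0 testes, with 68 and 97 counts in WT, 279, 282, 18 and 104 in the Pld6 KO, 18 and 28 in the Dnmt3l KO, and 6, 9 and 313 in the DKO. Libraries of the same genotype differed widely, from 1.54 to 23.0 CPM in the Pld6 KO and from 0.640 to 13.1 CPM in the DKO, so that both overlapped WT, whereas both Dnmt3l KO libraries lay below WT. The log2 differences from WT were 1.05 ± 1.01 in the Pld6 KO, -1.79 ± 1.25 in the Dnmt3l KO and -0.44 ± 1.03 in the DKO, and without the third DKO library the last was -3.39.

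Cdh19 had 0 and 3 counts in WT, 1, 0, 1 and 1 in the Pld6 KO, 5 and 0 in the Dnmt3l KO, and 2, 17 and 33 in the DKO. The second and the third DKO library were above all others, and the first was within the range of WT. The DKO was 8.84 times WT (95% counting interval 2.86 to 44.3). Schwann cell markers summed to 137.5, 164.0 and 162.9 CPM in the DKO and to 168.4 and 166.3 CPM in WT, so the DKO was not above WT.

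Myh4 had 4 and 2 counts in WT, 1, 5, 7 and 41 in the Pld6 KO, 9 and 25 in the Dnmt3l KO, and 10, 7 and 35 in the DKO. The Dnmt3l KO and DKO libraries all lay above WT, and the Pld6 KO overlapped it. The log2 differences from WT were 2.27 ± 1.23 in the Pld6 KO, 2.50 ± 1.33 in the Dnmt3l KO and 2.00 ± 1.26 in the DKO, without the fourth Pld6 KO library the first was 0.48, and without the second Dnmt3l KO library the second was 1.59. Tecrl had 2 and 6 counts in WT and 2 to 11 in the mutants, and overlapped WT in every mutant.

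The DKO was also compared with each single mutant at P0. The comparisons share the DKO libraries, and the same libraries had entered the choice of genes through their levels against WT, so the tests are not independent of that choice. Moreover, Cdh19, Apoh and Myh4 reached the cutoff of the low-count filter (0.859 CPM) in at least 2 libraries of the DKO and of no other genotype. Clca4 reached it in 2 of the Dnmt3l KO and of no other genotype. Their values are given without a test.

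Cdh19 was 17.3 times higher in the DKO than in the Pld6 KO (95% counting interval 5.597 to 86.5), over 3 counts in the 4 Pld6 KO libraries, and Apoh was higher by 2.08 ± 0.51 on the log2 scale. For both, all 3 DKO libraries were above all 4 Pld6 KO libraries, as for 3.31% of the genes tested. Against the Dnmt3l KO the DKO differed by 2.16 ± 1.04 for Cdh19, with overlap, and by 0.44 ± 0.56 for Apoh, also with overlap. Clca4 differed between the DKO and the Pld6 KO by -0.02 ± 0.68. It was lower in all 3 DKO libraries than in either Dnmt3l KO library, as were 18.7% of the genes tested. The log2 difference was -1.93 ± 0.74. For Myh4 the DKO differed by -0.27 ± 0.86 from the Pld6 KO and by -0.50 ± 1.00 from the Dnmt3l KO, with overlap in both.

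The other genes tested were Tmc2, Slc15a2 and Tecrl. Of them 0 were called by edgeR and 0 by the DESeq2 Wald test in either comparison. By edgeR 0 had an unadjusted p under 0.05 in either. Among all 15901 genes edgeR called 0% between the DKO and the Pld6 KO, where 6.02% had an unadjusted p under 0.05 and the DESeq2 Wald test called 6 genes, and 0.0755% between the DKO and the Dnmt3l KO, where 17.8% did. Tmc2 differed from the Pld6 KO by 0.18 ± 0.55 (edgeR FDR 0.968) and from the Dnmt3l KO by 1.44 ± 0.71 (edgeR FDR 0.303). Slc15a2 differed by -1.48 ± 0.88 (edgeR FDR 0.844) and 1.36 ± 1.16 (edgeR FDR 0.544) in the same order. Even the knocked-out gene Dnmt3l, with 4 counts in the DKO and 316 in the Pld6 KO, was not called between them (edgeR FDR 0.442). That comparison thus cannot decide whether Tmc2, Slc15a2 or Tecrl differed. Pld6, with 0 counts in the DKO and 87 in the Dnmt3l KO, was called between those (edgeR FDR 0.0240). With so few libraries, missing the threshold does not show that the genotypes were alike.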

How the data were processed

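PolyA(+) RNA of 17 libraries had been prepared with a stranded kit and read as single 50-bp (L/Z) or paired 100-bp (P0) reads. Reads were aligned with TopHat2 to mm10, and RefSeq genes were quantified with Cuffdiff (versions not given in the sources used here). The deposited tables, 1 per stage, hold, for each gene in each library, the authors' unscaled estimated count of fragments. They also give FPKM, which the authors scaled to transcript length and library size. Fragments of near-identical or overlapping transcripts are shared by likelihood, so values of such genes are uncertain. Replicates were not pooled. Replicate numbers start at 0 in the tables and at 1 in the labels, and were matched in order. The labels call replicates biological. The p-values set a difference against the spread between libraries, which the main fit estimated over all groups of a stage and partly from other genes.

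Estimated counts were rounded and fitted with edgeR 4.0.16 (R 4.3.3), with TMM scaling, filterByExpr and 1 quasi-likelihood fit per stage over all its groups. Genes with a status other than OK (6 at L/Z, 2 at P0) were left out. Calls needed an FDR (p-value after Benjamini-Hochberg adjustment) under 0.05 and a fold change over 2. CPM are TMM-scaled, SD are over libraries and SE from the fit. Where a group held 1 to 3 counts, the ratio of pooled rates is given with an exact 95% interval, and where it held 0, a bound against 3 counts over the group. The interval covers counting error only, and the bound only the counting error of the group at 0. The tests were tested on simulated counts first. Alternatives used DESeq2 1.42.0 and limma 3.58.1 on log2(FPKM + 1) or log2(FPKM + 0.1).

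The genes, the family and marker lists and the tests were chosen with earlier results of these data known. Named besides the 10 genes were the knocked-out genes, neighbours and relatives that were called or else had the smallest p, the 2 largest and 2 smallest differences of the other element-linked lists, and the gene most like each. Myh1, Myh2, Myh8 and Myh13 and the families' uncalled members were named after their values were seen. Neighbours were taken from RefSeq GRCm38.p6.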

Additional observations from a re-analysis of the deposited data

Results flagged for a closer look

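Myh4 in the fourth Pld6 KO library at P0 stood at 4.13 CPM, far from the other 3 libraries of its group, which lay at 0.0826 to 0.599 CPM. About 1 in 20 groups of this size would hold such a gap by chance if values were normally spread, which low counts such as these need not be. The 10 skeletal muscle markers were also highest in that library, at a sum of 26.4 CPM against 16.1 to 19.6 CPM in the other 3 Pld6 KO libraries, and their part in the Myh4 value was not tested.

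For 2 genes the Dnmt3l KO libraries moved in opposite directions from WT at the 2 stages. Slc15a2 was above WT in both Dnmt3l KO libraries at L/Z and below WT in both at P0, with a log2 difference at P0 of -1.79. Myh4 was below WT in both at L/Z and above WT in both at P0, with a log2 difference at P0 of 2.50. The difference between the stages was not tested, and stage cannot be told apart from tissue and read type.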

How the results depend on the processing

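Few libraries per group, at most 14578341 fragments each at L/Z, limited these results, and for most of the 10 genes WT held under 10 counts, so folds are wide or bounds. Deviations of same-numbered L/Z libraries correlated at 0.528 (WT and Pld6 KO, whose first libraries share a high Rn45s share), -0.131 (WT and Dnmt3l KO) and -0.115 (both mutants), and no label gives the numbers a shared source, so they were not treated as pairs. With the number as a replicate block the calls were 24 in Pld6 KO against WT (33 without), 912 in Dnmt3l KO against WT (802), 4 between the mutants (7), 0 in DKO against Pld6 KO (0) and 0 in DKO against Dnmt3l KO (12), and 0 and 2 neighbours and 0 and 3 relatives, as without it. Crossing the Dnmt3l KO numbers, which was chosen after seeing the data, gave 100, 1282 and 516 genes in the 3 L/Z comparisons and 1 relative in the Pld6 KO.

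Without the filter on low counts 74 genes were called in Pld6 KO against WT, 193 between the mutants and 91 in DKO against Dnmt3l KO, and 1 relative in the Pld6 KO. The DESeq2 Wald test called 90 in Pld6 KO against WT, 355 between the mutants, 6 in DKO against Pld6 KO and 258 in DKO against Dnmt3l KO, and 2 relatives in the Pld6 KO. DESeq2 size factors gave 3 between the mutants, all higher. With log2(FPKM + 1), limma called 3 in Pld6 KO against WT, 315 in Dnmt3l KO against WT, 6 in DKO against Dnmt3l KO and 0 neighbours in the Dnmt3l KO. With log2(FPKM + 0.1) it called 93 in Dnmt3l KO against WT, 1 between the mutants, 4 in DKO against Dnmt3l KO, 0 neighbours and 1 relative in the Dnmt3l KO. The compared groups alone gave 1 in Pld6 KO against WT, 181 between the mutants and 109 in DKO against Dnmt3l KO. A factor for Rn45s-rich libraries gave 101 in Pld6 KO against WT, 25 between the mutants, 2 relatives in the Pld6 KO and 1 neighbour in the Dnmt3l KO. Within 200 kb, 5 neighbours were called in the Dnmt3l KO. Leaving out a replicate gave 6 to 60 genes in Pld6 KO and 1 to 1109 in Dnmt3l KO against WT, 0 to 65 between the mutants, 0 to 2 in DKO against Pld6 KO and 0 to 57 in DKO against Dnmt3l KO. It gave 0 to 3 neighbours and 0 to 4 relatives in the Dnmt3l KO and 0 to 1 relative in the Pld6 KO. A lone library was assumed to vary like the other groups. The cause of these changes was not tested.

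The log2 differences of the 10 genes changed sign in 5 of 382 alternatives at L/Z, for Slc15a2, Cdh19 and Apoh in Pld6 KO against WT, and in 6 of 241 at P0, for Cdh19, Tecrl and Slc15a2. In the settings that kept all libraries, Tmc2, Slc15a2 and Tecrl, where tested, were not called in the DKO against either single knockout. In the main fit 0% of all genes were called against the Pld6 KO, so that the knocked-out gene Dnmt3l was missed too, and 0.0755% against the Dnmt3l KO.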
